A study of Homo sapiens with 70 samples.

Results

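Huh7 cells treated for 24 h and labelled sorafenib were compared with Huh7 cells given the vehicle DMSO. Huh7 is an established human hepatocellular carcinoma line. The comparison rests on 17 of the 70 poly-A RNA-seq libraries of the series, 9 labelled 2 µM sorafenib and 8 labelled DMSO. The other libraries used below are 8 of Huh7 labelled 5 µM GW3965, and 9 each of Hep3B, another hepatocellular carcinoma line, with 5 µM GW3965, 2 µM sorafenib and DMSO. The plot of label check genes also holds the groups given both drugs at these doses, 9 libraries in each line. All cells were grown in DMEM with serum and antibiotics. Genes were taken as the 20090 representative transcripts, 1 for each gene symbol, that the authors marked among the 32321 transcripts of their edgeR table for this comparison, and every one of them is counted. For each transcript that table gives a mean level over both groups in log2 CPM and a log2 fold change of labelled sorafenib over DMSO. It also gives a p-value and a false discovery rate (FDR). CPM are read counts scaled to the summed counts of all transcripts. Transcripts of a gene share reads in that sum, and the representatives hold 55.8% of the summed CPM. Single-library values were not analysed here. Depth is therefore unknown, no value per library can be shown, and the spread between libraries enters only through the authors' p-values. The labels do not say whether libraries of a group were separate cultures, and the p-values may therefore measure technical spread. The level of each group is given as the CPM that the authors' mean level and fold change imply together. A gene is called at an FDR under 0.05, and a gene whose mean reached 2 CPM is termed expressed.

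The 2 single-drug labels of Huh7 may have been exchanged, and the deposited labels are kept here, with the group called labelled sorafenib throughout. Each of 6 classical targets of the liver X receptors (LXR) was higher in the group labelled sorafenib, as in Hep3B given the LXR agonist GW3965, and 1 of them was higher in Huh7 labelled GW3965. Over a wider list of 19 LXR genes, 8 were called higher in each of the 2 Huh7 groups. Of all genes, 2.05% were called in labelled sorafenib and 20.4% in labelled GW3965. By the test of differences described below, 4 of 18 LXR genes had a higher fold change in labelled sorafenib and 5 a lower one. Each of 6 ERK-responsive genes was lower in the Huh7 group labelled GW3965, as in Hep3B given sorafenib. Whether an exchange took place was not tested, and a response of Huh7 to sorafenib cannot be told apart from an exchanged label with these tables.

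Sorafenib inhibits RAF kinases and several receptor tyrosine kinases, and so lowers signalling through MEK and ERK to immediate early genes and feedback inhibitors such as the DUSP and SPRY families. LXR are nuclear receptors for oxidised sterols; as partners of RXR they activate genes of cholesterol efflux and the transcription factor gene SREBF1, whose product drives fatty acid synthesis. Hepatocytes use both routes to balance sterols against lipoprotein output. The integrated stress response is a separate route, in which kinases of eIF2alpha raise translation of ATF4, and ATF4 then activates genes of amino acid uptake, amino acid synthesis and tRNA charging.

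In the authors' deposited table, 411 of 20090 genes were called (2.05%), 251 of them higher (1.25%) and 160 lower (0.796%) in labelled sorafenib. Without adjustment, 1827 genes had an edgeR p-value under 0.05 in the authors' deposited table. Most changes were small. The median size of a called log2 fold change was 0.45 in the authors' deposited table, and 38 genes were called higher and 10 lower by at least 2-fold. Over all genes the median log2 fold change was 0.01 in the authors' deposited table, and over the 11397 expressed genes it was -0.03. Of the expressed genes 378 were called, and 33 called genes lay under 2 CPM. By the lists of genes used here, 135 called genes belonged to at least 1 of 38 functional lists, of which 106 were higher and 29 lower, and 276 belonged to none.

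**Figure D1:**
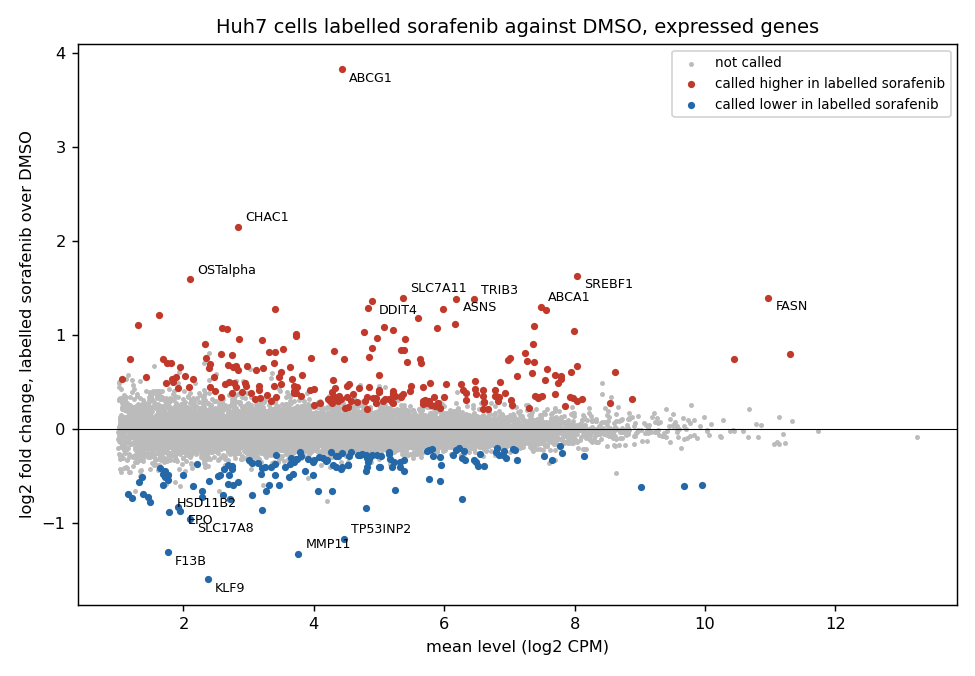
Log2 fold change of labelled sorafenib over DMSO in Huh7 (vertical axis) against the mean level in log2 CPM (horizontal axis) for the expressed genes of the authors' deposited table, 1 point a gene; red and blue mark genes at an FDR under 0.05. ABCG1, at 3.82, stands apart from the next gene, CHAC1, at 2.15, and the lowest value is that of KLF9, at -1.60.

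The highest fold change belonged to ABCG1 (NM_016818), which encodes a transporter that moves cholesterol out of cells and is a classical LXR target. The authors' deposited table implies 38.2 CPM of ABCG1 in labelled sorafenib, against 2.71 CPM in DMSO, a log2 fold change of 3.82 (edgeR FDR = 1.50e-254). ABCA1 (NM_005502), which loads cholesterol onto apolipoprotein A1, had an implied 249 CPM in labelled sorafenib, against 101 CPM in DMSO (log2 fold change 1.30, edgeR FDR = 1.48e-62), in the authors' deposited table. MYLIP, a sterol-responsive ubiquitin ligase, stood at 17.3 CPM in labelled sorafenib, against 8.63 CPM in DMSO, a log2 fold change of 1.00 in the authors' deposited table. Of the 19 genes on the list of LXR targets and receptors, 8 were higher and 1 lower in the authors' deposited table. The other members that rose were SMPDL3A, at a log2 fold change of 0.74, the phospholipid transfer protein gene PLTP, at 0.73, the LXR alpha gene NR1H3, at 0.57, and the lysosomal cholesterol carriers NPC2, at 0.30, and NPC1, at 0.26, in the authors' deposited table. The member that fell was NR1H4, the bile acid receptor FXR, at -0.71 in the authors' deposited table. NR1H2, the LXR beta gene, stood at -0.04 and APOE at 0.16 without a call in the authors' deposited table. The median of the list was 0.16, against 0.01 over all genes, in the authors' deposited table.

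The label check genes are set side by side in all 6 tables of the series, whose 3 Huh7 tables share their DMSO libraries, as do the 3 Hep3B tables. Of the LXR-responsive genes ABCG1, ABCA1, SREBF1, FASN, SCD and MYLIP, 6 of 6 were higher in labelled sorafenib in the authors' deposited table. The same genes numbered 1 of 6 higher in Huh7 labelled GW3965 and 6 of 6 higher in Hep3B given GW3965, in the authors' deposited tables. Without adjustment, 3 of the 6 had an edgeR p under 0.05 in Huh7 labelled GW3965. With sorafenib in Hep3B, 1 of the 6 was higher and 4 were lower in the authors' deposited table. The wider list of 19 LXR genes gave 8 higher and 1 lower in labelled sorafenib, 8 and 0 in Huh7 labelled GW3965, 8 and 1 in Hep3B given GW3965 and 4 and 1 in Hep3B given sorafenib, in the authors' deposited tables. Its median log2 fold change was 0.16 in labelled sorafenib, 0.33 in Huh7 labelled GW3965, 0.34 in Hep3B given GW3965 and 0.24 in Hep3B given sorafenib, in the authors' deposited tables. Of the ERK-responsive genes DUSP6, SPRY4, SPRY2, ETV4, ETV5 and EGR1, 0 were higher and 0 lower in labelled sorafenib, and 2 had an unadjusted edgeR p under 0.05, in the authors' deposited table. All 6 were lower in Huh7 labelled GW3965 and in Hep3B given sorafenib, and all 6 higher in Hep3B given GW3965, in the authors' deposited tables. DUSP6, the ERK phosphatase, had an implied 86.4 CPM in labelled sorafenib, against 87.4 CPM in DMSO, in the authors' deposited table. EGR1, an immediate early transcription factor, had 16.5 CPM in labelled sorafenib, against 21.9 CPM in DMSO, with an edgeR FDR of 0.430 in the authors' deposited table. SPRY2 stood at 0.19 and ETV4 at 0.13 in the authors' deposited table, neither with a call.

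**Figure D2:**
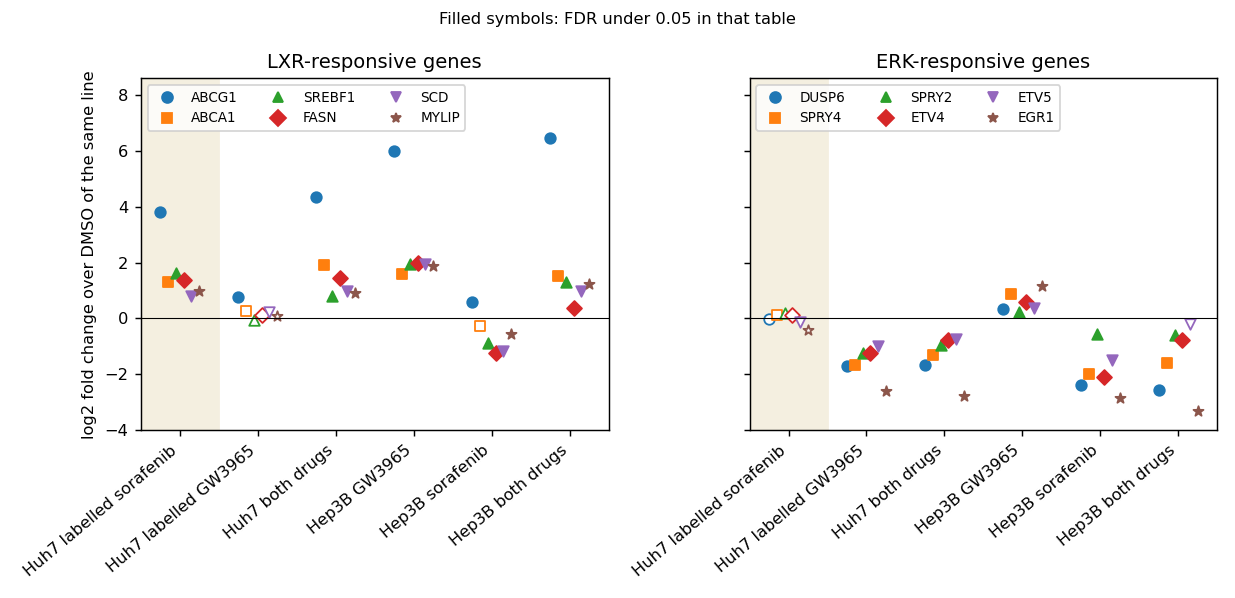
Log2 fold change over DMSO of the same line (vertical axis) for 6 LXR-responsive genes (left) and 6 ERK-responsive genes (right) in the 6 drug groups of the authors' deposited tables (horizontal axis); filled symbols mark an FDR under 0.05, and shading marks labelled sorafenib. In labelled sorafenib all 6 LXR-responsive symbols are filled and above 0, while all 6 ERK-responsive symbols are open and lie between -0.41 and 0.19.

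Fatty acid synthesis was the list with the most calls. In the authors' deposited table, 14 of its 23 genes were higher and 0 lower, with a median log2 fold change of 0.51 against 0.01 over all genes. SREBF1 (NM_001005291), the transcription factor that drives the pathway, had an implied 387 CPM in labelled sorafenib, against 125 CPM in DMSO (log2 fold change 1.63, edgeR FDR = 2.13e-82), in the authors' deposited table. FASN, the fatty acid synthase, had 2838 CPM in labelled sorafenib, against 1079.8 CPM in DMSO (log2 fold change 1.39, edgeR FDR = 1.20e-63), in the authors' deposited table. The steps that feed FASN rose with it. ACSS2, which makes acetyl-CoA from acetate, rose by 1.27, ACACA, which makes malonyl-CoA, by 0.75, ACLY, which splits citrate, by 0.60 and the citrate carrier gene SLC25A1 by 0.37 in the authors' deposited table. SCD, the stearoyl-CoA desaturase, had 3165 CPM in labelled sorafenib, against 1820.4 CPM in DMSO, a log2 fold change of 0.80 in the authors' deposited table. Desaturation and elongation further along were represented by FADS2, at 0.74, and ELOVL5, at 0.51, both called higher in the authors' deposited table. FADS1 stood at 0.49 and ELOVL6 at 0.44 without a call in the authors' deposited table. The remaining called members were ACACB, at 0.69, ACSL3, at 0.66, PNPLA3, at 0.62, MID1IP1, at 0.56, and ME1, at 0.45, in the authors' deposited table.

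Of 23 genes of glycerolipid and phospholipid synthesis, 5 were higher and 0 lower in the authors' deposited table, with a median of 0.09. LPCAT3, which puts polyunsaturated acyl chains into phospholipids, rose by 1.12, GPAM, the first step of glycerolipid synthesis, by 1.07 and the phosphatidate phosphatase gene LPIN1 by 1.05 in the authors' deposited table. PCYT2 rose by 0.49 and the lipid droplet coat gene PLIN2 by 0.34 in the authors' deposited table. DGAT1, which makes triglyceride, stood at 0.04 without a call in the authors' deposited table. Of 21 genes of fatty acid oxidation only PDK4, at 0.73, was called, and HADHA, at -0.02, and ACADVL, at 0.12, were not, in the authors' deposited table. The mean of PDK4 lay under 2 CPM. Of 18 genes of lipoprotein handling 2 were higher and 0 lower in the authors' deposited table, among them the endothelial lipase gene LIPG, at 0.47. APOB, at -0.03, and MTTP, at -0.16, were not called in the authors' deposited table.

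Cholesterol synthesis genes had fewer calls and smaller fold changes. Of 21 genes of the mevalonate and cholesterol pathway, 7 were higher and 0 lower in the authors' deposited table, with a median of 0.19. MVD, the mevalonate diphosphate decarboxylase, had an implied 334 CPM in labelled sorafenib, against 163 CPM in DMSO, a log2 fold change of 1.04 in the authors' deposited table. LSS, the lanosterol synthase, rose by 0.70, whereas FDPS, at 0.35, EBP, at 0.33, DHCR7, at 0.31, and MVK, at 0.27, rose by less in the authors' deposited table. HMGCS1 stood at 0.21 and SQLE at -0.01 without a call in the authors' deposited table. Of 13 genes of sterol sensing and uptake, 6 were higher and 0 lower in the authors' deposited table. Among them were VLDLR, at 0.94, INSIG1, which holds SREBP proteins in the ER, at 0.90, STARD4, at 0.43, and SREBF2, at 0.22, in the authors' deposited table.

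**Figure D3:**
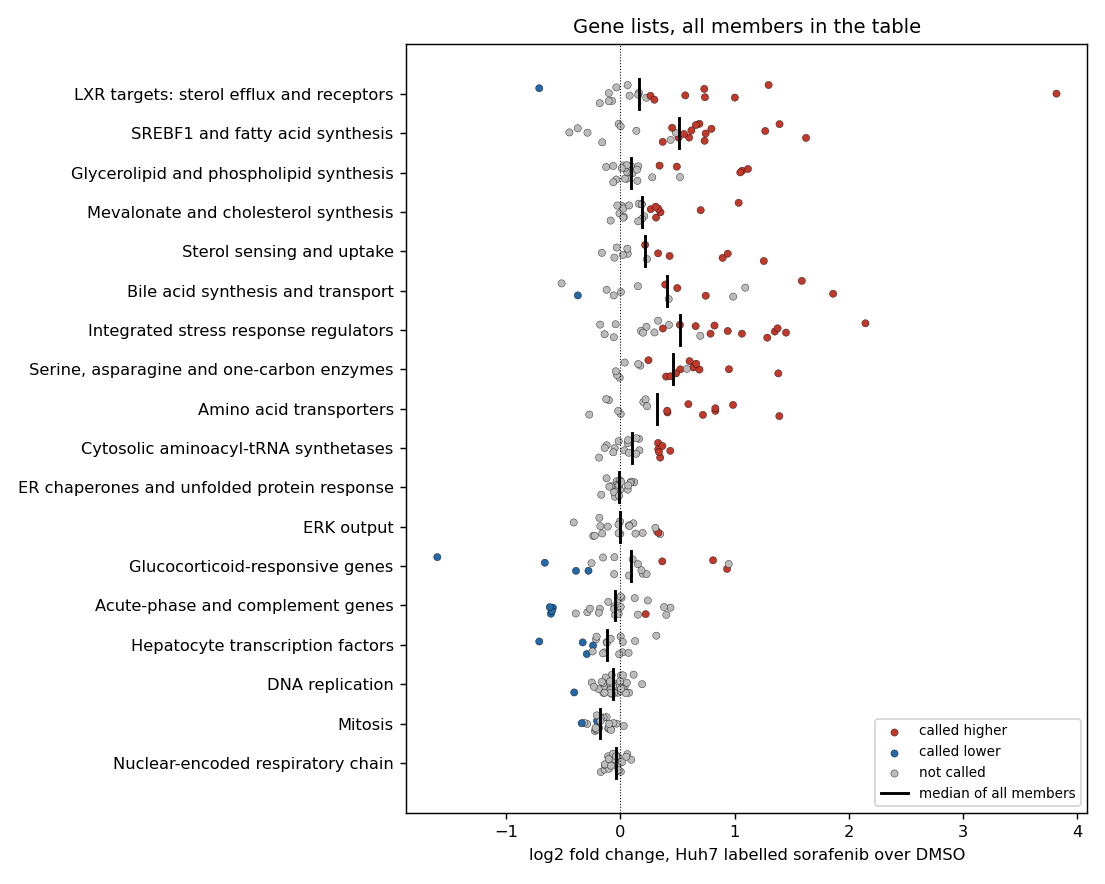
Log2 fold change of labelled sorafenib over DMSO (horizontal axis) for every member of 18 gene lists (vertical axis) in the authors' deposited table; red and blue mark genes called higher and lower, grey those not called, and the black bar is the median of all members. Most called genes of the lipid and amino acid lists lie to the right, with ABCG1 at 3.82 and, on the left, NR1H4 at -0.71. Those of the acute-phase and hepatocyte factor lists lie mostly to the left. The glucocorticoid list splits, with 3 called higher and 4 lower, among them KLF9 at -1.60.

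Promoters of called genes were searched on both strands for 2 patterns of these pathways, in the window from 250 bases before to 50 after the start in RefSeq's GRCh38.p14 table. Of the 251 genes called higher 192 matched that table, as did 121 of the 160 called lower. The DR4 pattern GGTNANNNNNGGTCA, a pair of hormone receptor repeats as LXR and RXR bind them, lay in 2 promoters of the genes called higher, in 0 of those called lower and in 0.192% of 9352 promoters of expressed genes. The sterol regulatory element pattern TCACCCCAC, which SREBP proteins bind, lay in 2 promoters of the genes called higher, in 0 of those called lower and in 0.331% of those of expressed genes. A match is a run of letters and not a site shown to be bound. By list, the sterol regulatory element pattern lay in 0 of 16 promoters of mevalonate and cholesterol genes. It lay in 1 of 9 of sterol sensing and uptake and in 1 of 21 of fatty acid synthesis. The DR4 pattern lay in 1 of 15 promoters of the LXR list. GOT1, at 0.04, and PNPLA2, at 0.01, held the sterol regulatory element pattern without a call. These counts were not tested. The 4 windows of called genes that hold a match follow, 5′ to 3′ along the gene, with the match in capitals. The first pair holds the DR4 pattern and the second pair the sterol regulatory element pattern, and all but SREBF2 carry it on the strand opposite to the gene.
ABCA1 (chr9:104928160-104928274, minus strand): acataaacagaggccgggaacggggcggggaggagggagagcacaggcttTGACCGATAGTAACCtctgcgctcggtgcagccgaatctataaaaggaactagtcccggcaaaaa
ACSL3 (chr2:222860814-222860928, plus strand): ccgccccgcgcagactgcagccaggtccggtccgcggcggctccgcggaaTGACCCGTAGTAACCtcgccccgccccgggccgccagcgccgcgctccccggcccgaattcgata
SREBF2 (chr22:41832922-41833030, plus strand): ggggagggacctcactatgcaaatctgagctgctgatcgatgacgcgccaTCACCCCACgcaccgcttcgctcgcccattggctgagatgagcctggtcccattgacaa
MID1IP1 (chrX:38801369-38801477, plus strand): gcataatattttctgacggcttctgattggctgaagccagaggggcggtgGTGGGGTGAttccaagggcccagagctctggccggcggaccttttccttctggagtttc

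Bile acid genes went both ways. Of 14 genes of bile acid synthesis and transport, 5 were higher and 1 lower in the authors' deposited table, with a median of 0.41, but only 7 of them were expressed. OSTalpha, 1 chain of the transporter that exports bile acids from cells, had an implied 6.27 CPM in labelled sorafenib, against 2.08 CPM in DMSO, a log2 fold change of 1.59 in the authors' deposited table. Its partner chain OSTBETA rose by 0.75, and NR0B2, the repressor SHP, by 0.50 in the authors' deposited table. FGF19, the hormone that represses bile acid synthesis, rose by 0.39 in the authors' deposited table. ABCB11, the bile salt export pump, was called at 1.86 but lay under 1 CPM, with an implied 0.620 CPM in labelled sorafenib, against 0.170 CPM in DMSO, in the authors' deposited table. These genes are textbook targets of FXR, whose own gene NR1H4 had 6.40 CPM in labelled sorafenib, against 10.5 CPM in DMSO, in the authors' deposited table. AKR1D1, a reductase of bile acid synthesis, fell by 0.37 (log2) in the authors' deposited table.

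The second large group was that of amino acid stress genes. Of 23 regulators of the integrated stress response, 12 were higher and 0 lower in the authors' deposited table, with a median of 0.52 against 0.01 over all genes. CHAC1, which degrades glutathione, had an implied 11.2 CPM in labelled sorafenib, against 2.54 CPM in DMSO (log2 fold change 2.15, edgeR FDR = 6.14e-33), in the authors' deposited table. TRIB3 encodes a pseudokinase that feeds back on ATF4, and it had 123 CPM in labelled sorafenib, against 47.4 CPM in DMSO (log2 fold change 1.38, edgeR FDR = 1.32e-50), in the authors' deposited table. ATF4 itself, the transcription factor of the response, rose by 0.52 in the authors' deposited table. The mTORC1 inhibitors DDIT4, at 1.35, and SESN2, at 0.82, and the secreted factors STC2, at 1.29, and INHBE, at 1.06, were called higher in the authors' deposited table. NUPR1, at 1.45, JDP2, at 0.79, ATF3, at 0.66, VEGFA, at 0.37, and VLDLR, which is also on the sterol uptake list, completed the called members in the authors' deposited table. DDIT3, which encodes CHOP, stood at 0.30 with an edgeR FDR of 0.368 in the authors' deposited table. ATF5, at -0.06, PPP1R15A, at 0.20, and CEBPB, at 0.23, were not called in the authors' deposited table.

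Enzymes and carriers of amino acids rose with the regulators. Of 18 enzymes of serine, asparagine and one-carbon metabolism, 11 were higher and 0 lower in the authors' deposited table, with a median of 0.46. ASNS, the asparagine synthetase, had an implied 102 CPM in labelled sorafenib, against 39.1 CPM in DMSO, a log2 fold change of 1.38 in the authors' deposited table. The serine pathway genes PHGDH, at 0.64, and PSAT1, at 0.61, rose, and PSPH, at 0.17, was not called, in the authors' deposited table. Mitochondrial folate enzymes rose, with ALDH1L2 at 0.95, MTHFD2 at 0.69, SHMT2 at 0.52 and MTHFD1L at 0.40, while the cytosolic enzymes MTHFD1, at -0.03, and SHMT1, at -0.01, were not called, in the authors' deposited table. The cytosolic ALDH1L1 was called too, at 0.66, with an FDR near the threshold (edgeR FDR = 0.0476), in the authors' deposited table. Of 16 amino acid transporters, 8 were higher and 0 lower in the authors' deposited table, with a median of 0.32. SLC7A11, the cystine carrier, had 58.2 CPM in labelled sorafenib, against 22.2 CPM in DMSO, a log2 fold change of 1.39 in the authors' deposited table. SLC6A9, at 0.99, SLC1A4, at 0.83, SLC7A1, at 0.83, SLC3A2, at 0.72, SLC7A5, at 0.60, SLC43A1, at 0.41, and SLC1A5, at 0.41, rose, and SLC38A2, at -0.02, was not called, in the authors' deposited table. Of 20 cytosolic aminoacyl-tRNA synthetases, 6 were higher and 0 lower, between 0.33 for AARS and 0.44 for CARS, in the authors' deposited table. PCK2, the mitochondrial PEP carboxykinase, rose by 0.95, ADM2, a peptide hormone gene, by 1.27 and C19orf46, also among the 15 highest, by 1.20 in the authors' deposited table. Of 23 ER chaperone and unfolded protein response genes 0 were called, and 2 had an unadjusted edgeR p under 0.05, in the authors' deposited table, where HSPA5, which encodes BiP, stood at -0.03. Of 15 cytosolic heat shock genes 0 were called and 3 had an unadjusted edgeR p under 0.05, and HSPA8 stood at -0.08, in the authors' deposited table.

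The ATF4 composite element (CARE), searched as TGATGNAA on both strands of the same promoter windows, lay in 9.38% of the 192 promoters of genes called higher. It lay in 0.826% of the 121 promoters of genes called lower, in 1.56% of the 9352 of expressed genes and in 3.67% of all 27305. By list, 6 of 16 promoters of tRNA synthetase genes held it, 3 of 13 of the serine and one-carbon enzymes, 3 of 11 of the amino acid transporters and 3 of 20 of the stress response regulators. These include genes without a call, among them IARS, at 0.16, TARS, at 0.14, NARS, at 0.14, GOT1, at 0.04, and SLC38A1, at 0.22. The counts are descriptions of short windows and were not tested, and no match says only that these letters are not in the window. A window each from a regulator, an amino acid enzyme, a tRNA synthetase and a folate enzyme is shown, 5′ to 3′ along the gene, with the match in capitals. All were chosen from genes called higher. CHAC1 and AARS carry the pattern on the strand opposite to the gene.
CHAC1 (chr15:40953221-40953319, plus strand): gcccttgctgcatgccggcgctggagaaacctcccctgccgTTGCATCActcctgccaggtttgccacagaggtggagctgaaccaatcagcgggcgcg
ASNS (chr7:97872419-97872526, minus strand): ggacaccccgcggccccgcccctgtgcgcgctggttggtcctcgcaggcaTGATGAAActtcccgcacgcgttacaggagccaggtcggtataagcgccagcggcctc
AARS (chr16:70289636-70289743, minus strand): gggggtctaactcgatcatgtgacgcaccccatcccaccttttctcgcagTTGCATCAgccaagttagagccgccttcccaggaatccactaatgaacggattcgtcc
MTHFD1L (chr6:150866307-150866414, plus strand): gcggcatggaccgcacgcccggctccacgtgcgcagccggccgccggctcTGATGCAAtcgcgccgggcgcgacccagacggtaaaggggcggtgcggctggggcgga

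Genes of redox and metal handling gave a smaller set. Of 20 NRF2 targets, 7 were higher and 0 lower in the authors' deposited table, with a median of 0.01. The pentose phosphate genes PGD, at 0.56, and TKT, at 0.24, were among them, as were NQO1, at 0.47, and ABCC2, at 0.29, in the authors' deposited table, while TXNRD1, at 0.01, and FTL, at 0.08, were not called. ME1 and SLC7A11, described above, were also among them. Of 12 metallothionein and zinc genes, 4 were higher in the authors' deposited table, namely MT1H, at 0.64, MT1M, at 0.39, MT1F, at 0.37, and MT1G, at 0.33. The MT1 genes are near copies of one another, and with no account of how their reads were divided their single values are uncertain.

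Among the genes that fell, KLF9 had the lowest fold change. KLF9, a transcription factor gene that glucocorticoids and thyroid hormone induce, had an implied 2.64 CPM in labelled sorafenib, against 8.03 CPM in DMSO (log2 fold change -1.60, edgeR FDR = 2.16e-27), in the authors' deposited table. MMP11, a secreted metalloproteinase gene, had 7.89 CPM in labelled sorafenib, against 19.9 CPM in DMSO (log2 fold change -1.33, edgeR FDR = 2.43e-32), in the authors' deposited table. TP53INP2, an autophagy factor gene, had 13.8 CPM in labelled sorafenib, against 31.1 CPM in DMSO, a log2 fold change of -1.17 in the authors' deposited table. The remaining 12 of the 15 lowest lay between -1.32 for F13B and -0.73 for HIST1H2BC in the authors' deposited table. Those with a known role include HSD11B2, which inactivates cortisol, at -0.89, the hormone gene EPO, at -0.88, the monoglyceride lipase gene MGLL, at -0.86, and the glutathione transferase gene GSTA1, at -0.83, in the authors' deposited table. SLC17A8, at -0.96, C8orf4, at -0.85, ZNF563, at -0.78, HEG1, at -0.75, and HPR, at -0.74, were also among them in the authors' deposited table.

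Glucocorticoid-responsive genes split, with 3 of 18 higher and 4 lower in the authors' deposited table. Besides KLF9, SGK1 fell by 0.66, the glucocorticoid receptor gene NR3C1 by 0.39 and ERRFI1 by 0.28 (log2) in the authors' deposited table. TAT, at 0.93, and TSC22D3, at 0.81, were among those that rose, and FKBP5, at -0.05, and PER1, at 0.11, were not called, in the authors' deposited table. The mean of TAT lay under 2 CPM. Of 19 clock genes the output factors HLF, at -0.75, and DBP, at -0.69, fell and BHLHE40, at 0.55, rose in the authors' deposited table. CRY1, at -0.07, and NR1D2, at -0.04, were not called in the authors' deposited table.

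Several secreted liver proteins were lower. Of 25 acute-phase and complement genes, 4 were lower and 1 higher in the authors' deposited table. The fibrinogen chains moved by nearly the same amount, FGG by -0.62, FGA by -0.61 and FGB by -0.60 in the authors' deposited table. FGB had an implied 800 CPM in labelled sorafenib, against 1212 CPM in DMSO, in the authors' deposited table. HP, haptoglobin, fell by 0.59 (log2) in the authors' deposited table, while C3 rose by 0.22. HP and HPR are near copies, so the 2 values may share reads. Of 18 coagulation genes F13B, at -1.32, and SERPIND1, at -0.54, fell in the authors' deposited table. Prothrombin, F2, stood at -0.06 without a call in the authors' deposited table. Of 19 hepatocyte transcription factors, 4 were lower and 0 higher in the authors' deposited table, among them NR1H4, ONECUT1, at -0.29, and FOXA1, at -0.24. HNF4A, at 0.02, and CEBPA, at -0.12, were not called in the authors' deposited table. GSTA1, at -0.83, and its near copy GSTA2, at -1.01, fell and CYP1A1, at 0.48, rose among 20 xenobiotic genes, of which 4 were expressed, in the authors' deposited table. GSTA2 was not among the expressed, with a mean of 0.915 CPM.

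Mitosis genes leaned lower with few calls. Of 26 mitosis genes 2 were lower in the authors' deposited table, NUSAP1, at -0.34, and AURKA, at -0.20, and the median of the list was -0.18, against 0.01 over all genes. Of these 26 genes 1 had a fold change above 0, and 17 had an unadjusted edgeR p under 0.05, in the authors' deposited table. MKI67, at -0.19, and CCNB1, at -0.17, were not called in the authors' deposited table. Of 37 DNA replication genes CCNE2, at -0.40, fell, 9 had an unadjusted edgeR p under 0.05, and the median was -0.06 in the authors' deposited table. CCND1, cyclin D1, had an implied 206 CPM in labelled sorafenib, against 209 CPM in DMSO, in the authors' deposited table. Of 20 ERK output genes only MYC was called, at 0.33, in the authors' deposited table. Of 24 immediate early genes, 4 were higher and 1 lower in the authors' deposited table, the last being KLF2, at -0.35, and JUND, at 0.35, and BTG2, at 0.30, rose beside MYC and ATF3. Of 19 YAP and Wnt genes DKK1, at -0.56, and YAP1 itself, at -0.40, fell and GLUL, at 0.28, rose in the authors' deposited table.

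No gene was called in the lists of G1 cyclins and CDK inhibitors (17 genes), BCL2 family and death receptors (23 genes), NF-kB and chemokines (23 genes), interferon-stimulated genes (23 genes) and the respiratory chain (25 genes) in the authors' deposited table. At an unadjusted edgeR p under 0.05, the G1 list had 4 genes, the BCL2 list 4, the NF-kB list 2, the interferon list 2 and the respiratory chain 1 in the authors' deposited table. Over all genes 2.05% were called, and 1827 of 20090 had an unadjusted edgeR p under 0.05. With so small a share called, the absence of a call in lists of this size says little about them. The same holds for the ER chaperone and heat shock lists above. Of 21 p53 targets SESN2 and BTG2 were called, while MDM2, at -0.09, was not, in the authors' deposited table. Of 31 glycolysis and glucose genes, PCK2 rose and PKLR, at -0.77 with a mean of 1.89 CPM, fell in the authors' deposited table. Of 18 hypoxia-inducible genes VEGFA rose and EPO fell in the authors' deposited table, and of 23 lysosome and autophagy genes NEU1, at 0.38, rose and WIPI1, at -0.48, fell. Of 21 matrix genes MMP11 alone fell and of 45 large ribosomal subunit genes RPL13A alone was called, at 0.25, in the authors' deposited table. The pseudogene RPL13AP5, which shares sequence with RPL13A, was called at 0.27 in the same authors' deposited table.

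Marker genes were those of hepatoma cells. All 10 hepatoma and fetal liver markers were expressed and 0 called, with AFP at -0.09, ALB at -0.09 and TF at 0.21 in the authors' deposited table. Of 8 fibroblast markers 3 were expressed and 0 called, of 7 leukocyte markers 2 were expressed and 0 called (2, 0 and 0 fibroblast, leukocyte and hepatoma markers had an unadjusted edgeR p under 0.05), and of the 5 endothelial markers found 0 were expressed, in the authors' deposited table. CDH5 was the 1 endothelial marker called, at 1.62, with an implied 0.524 CPM in labelled sorafenib, against 0.171 CPM in DMSO, in the authors' deposited table.

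Transcripts of a gene were not separated. Of the called genes, 142 had other transcripts at 2 CPM or more, 284 in all, and each of these had the direction of its representative, 269 of them with a call, in the authors' deposited table. The 6 transcripts of ABCG1 lay between 3.81 and 3.82 in the authors' deposited table. A1BG, at 0.66, and its antisense gene A1BG-AS1, at 0.69, were both called in the authors' deposited table, and since counting by strand is not stated their reads cannot be told apart.

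The fold changes of labelled sorafenib were next set against those of Hep3B given GW3965, which share no library with them. Of the 411 genes called here, 201 were called in the same direction in Hep3B given GW3965, 48.9% of these and 14.7% of the 1365 called there, where the background was 6.79% of genes. Only 3 were called in opposite directions. Of the genes called higher 63.7% were higher in both, and of those called lower 25.6% were lower in both. The 2 sets of fold changes had, over 10702 genes that are no independent replicates, a Spearman rho of 0.28 and a Pearson r of 0.51.

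An approximate normal test of the difference in log2 fold change, with errors taken from the deposited p-values, called 207 of 11345 genes (1.82%) between labelled sorafenib and Hep3B given GW3965, where the mean log2 level over both tables had to reach that of 2 CPM. Of these 29 had the higher fold change in labelled sorafenib and 178 the lower. Of the lists, 4 of 15 LXR genes had a lower fold change in labelled sorafenib and 1 a higher one, 9 and 1 of 21 fatty acid synthesis genes, and 4 and 0 of 13 genes of sterol sensing. ABCG1 differed by -2.17 (95% interval -2.58 to -1.77), with 3.82 in labelled sorafenib and 5.99 in Hep3B given GW3965 in the authors' deposited tables. SCD differed by -1.17 (95% interval -1.39 to -0.96) and FASN by -0.60 (95% interval -0.86 to -0.35). Of 21 cholesterol synthesis genes 11 had a lower and 0 a higher fold change in labelled sorafenib, among them HMGCS1, at 0.21 in labelled sorafenib and 0.83 in Hep3B given GW3965 in the authors' deposited tables. Of 17 ERK output genes tested 8 had a lower and 0 a higher fold change, and EGR1 stood at -0.41 in labelled sorafenib and 1.16 in Hep3B given GW3965 in the authors' deposited tables. ABCA1 did not pass, with a difference of -0.28 (95% interval -0.50 to -0.06, adjusted p = 0.242).

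Most amino acid stress genes did not pass the test against Hep3B given GW3965, and those that did went both ways. Of 20 stress response regulators 3 had a higher and 1 a lower fold change in labelled sorafenib, of 16 serine and one-carbon enzymes 1 and 1, of 14 amino acid transporters 1 and 0 and of 20 tRNA synthetases 0 and 1. CHAC1 differed by 1.29 (95% interval 0.87 to 1.71), with 2.15 in labelled sorafenib and 0.86 in Hep3B given GW3965 in the authors' deposited tables. ASNS differed by 0.66 (95% interval 0.32 to 1.01), SLC1A4 by 0.48 (95% interval 0.29 to 0.67) and SESN2 by 0.39 (95% interval 0.18 to 0.61). NUPR1 differed by 1.39 (95% interval 0.75 to 2.03), but its mean was 0.953 CPM in the Huh7 comparison, so that its level in Hep3B brought it into the test. The lower members were GOT1, at -0.55 (95% interval -0.75 to -0.35), VEGFA, at -0.40 (95% interval -0.60 to -0.20), and WARS, at -0.38 (95% interval -0.57 to -0.19). TRIB3 differed by 0.01 (95% interval -0.23 to 0.25) and SLC7A11 by 0.26 (95% interval -0.14 to 0.65), neither of which passed. The genes that fell most went further down in labelled sorafenib for KLF9, at -1.60 against -0.88 in Hep3B given GW3965, and TP53INP2, at -1.17 against -0.13, in the authors' deposited tables. MMP11, at -1.33 in labelled sorafenib and -0.99 in Hep3B given GW3965 in the authors' deposited tables, did not pass (95% interval of the difference -0.65 to -0.04, adjusted p = 0.329).

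**Figure D4:**
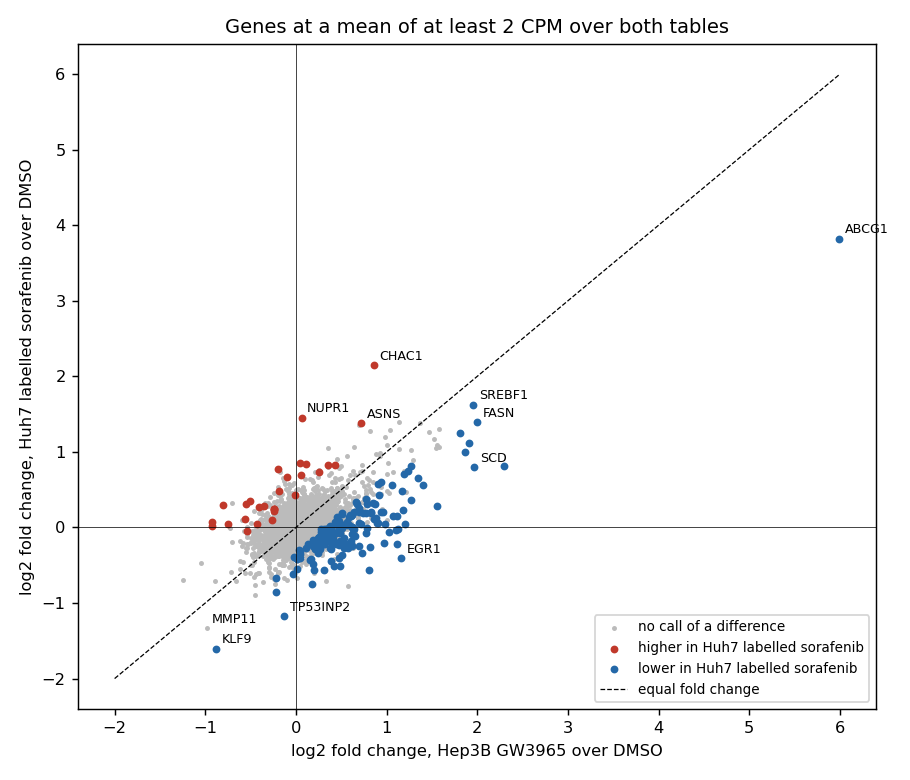
Log2 fold change over DMSO in Huh7 labelled sorafenib (vertical axis) against that in Hep3B given GW3965 (horizontal axis) for 11345 genes at a mean of at least 2 CPM in the authors' deposited tables; red and blue mark the 29 genes with a higher and the 178 with a lower fold change in labelled sorafenib. ABCG1, at 3.82 and 5.99, lies below the line of equal fold change and CHAC1, at 2.15 and 0.86, above it.

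Against Hep3B given sorafenib, which carries the same drug label and shares no library, the same test called 4141 of 11457 genes (36.1%), 2100 with a higher and 2041 with a lower fold change in labelled sorafenib. The background of calls in Hep3B given sorafenib was 34.7%. Of the 411 genes called in labelled sorafenib, 160 were called in the same and 95 in the opposite direction there, in the authors' deposited tables. FASN stood at 1.39 in labelled sorafenib and -1.22 in Hep3B given sorafenib in the authors' deposited tables, and DUSP6 at -0.02 in labelled sorafenib and -2.40 in Hep3B given sorafenib. Of 20 stress response genes tested, 19 had a lower fold change in labelled sorafenib and 0 a higher one. CHAC1, for example, stood at 2.15 in labelled sorafenib and 3.56 in Hep3B given sorafenib in the authors' deposited tables.

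Against Huh7 labelled GW3965, which shares the 8 DMSO libraries and has a background of 20.4% of genes called, the same test called 1537 of 11430 genes (13.4%), 771 with a higher and 766 with a lower fold change in labelled sorafenib. Because the shared libraries cancel in the true difference, the summed error is too large and the test is conservative. Of 21 fatty acid synthesis genes 11 had a higher and 3 a lower fold change in labelled sorafenib, of 18 LXR genes 4 and 5, and of 19 glycerolipid genes 3 and 3. SREBF1 stood at 1.63 in labelled sorafenib and -0.07 in labelled GW3965, and FASN at 1.39 in labelled sorafenib and 0.12 in labelled GW3965, in the authors' deposited tables. The stress genes CHAC1 and ASNS stood close together. CHAC1 was at 2.15 in labelled sorafenib and 2.07 in labelled GW3965 in the authors' deposited tables, a difference of 0.07 (95% interval -0.58 to 0.73). ASNS was at 1.38 in labelled sorafenib and 1.43 in labelled GW3965 in the authors' deposited tables, a difference of -0.05 (95% interval -0.66 to 0.57). These intervals are wide, and 3 of 19 stress response genes had a lower fold change in labelled sorafenib, with DDIT3 at 0.30 in labelled sorafenib and 1.35 in labelled GW3965 in the authors' deposited tables. Cholesterol synthesis genes rarely differed, 0 higher and 1 lower of 21, and LSS was at 0.70 in labelled sorafenib and 0.70 in labelled GW3965 in the authors' deposited tables.

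Some of the genes that fell in labelled sorafenib had fold changes above 0 in labelled GW3965, and KLF9 was near 0, at 0.17, in the authors' deposited table. Others were below 0 there too, with MGLL at -0.96, HLF at -0.86 and HIST1H2BC at -1.08 in labelled GW3965. FGG was at -0.62 in labelled sorafenib and 0.60 in labelled GW3965, a difference of -1.22 (95% interval -1.47 to -0.97), in the authors' deposited tables. GSTA1 was at -0.83 in labelled sorafenib and 1.28 in labelled GW3965, a difference of -2.11 (95% interval -2.55 to -1.68), in the authors' deposited tables. MMP11, at -1.33 in labelled sorafenib and 0.73 in labelled GW3965, and TP53INP2, at -1.17 in labelled sorafenib and 0.76 in labelled GW3965, differed by -2.06 and -1.93 in the authors' deposited tables. Of 15 coagulation genes tested 7 had a lower fold change in labelled sorafenib and 0 a higher one, and of 18 hepatocyte transcription factors 5 and 0. ACSS2 did not differ past the threshold, at 1.27 in labelled sorafenib and 1.48 in labelled GW3965 in the authors' deposited tables (95% interval of the difference -0.50 to 0.07).

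The fold changes in labelled sorafenib moved with the GC content of the transcript. Over 10986 expressed genes, again no independent replicates, the Spearman rho with GC content was 0.39 in labelled sorafenib, 0.17 in Huh7 labelled GW3965, -0.04 in Hep3B given GW3965 and 0.01 in Hep3B given sorafenib. With transcript length the rho was 0.00 in labelled sorafenib. In 20 bins of GC content the median log2 fold change of labelled sorafenib lay between -0.12 in the lowest bin, at a median GC content of 36.2%, and 0.06 in the highest, at 66.1%. In Huh7 labelled GW3965, which shares the DMSO libraries, the median was -0.14 in the lowest bin and 0.02 in the highest. Genes called higher had a median GC content of 53.6% and genes called lower 44.7%, against 48.8% over all expressed genes. Relative to genes of like GC content the median of mitosis genes was -0.10 rather than -0.18, and that of fatty acid synthesis genes was 0.57 over the 20 members with a GC value. The part of GC content in the small shifts was not tested.

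**Figure D5:**
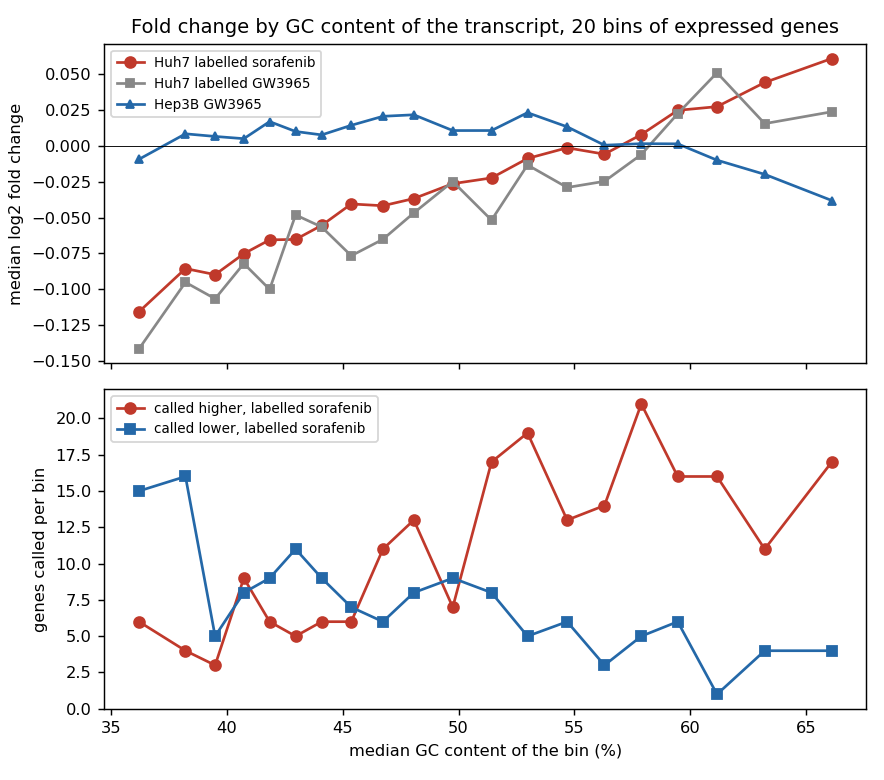
Median log2 fold change (upper panel) and number of genes called higher or lower in labelled sorafenib (lower panel) in 20 bins of expressed genes, against the median GC content of the bin in percent (horizontal axis). The red line of labelled sorafenib lies at -0.12 in the lowest bin and 0.06 in the highest.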

How the data were processed

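The groups of the 70 libraries come from the labels. edgeR, without a version, and the builds hg19 and GRCh37 are named in the submitters' processing notes; no aligner or counting tool is named in those sources. Per the file headers, the authors deposited for each drug group against DMSO the mean log2 CPM of each RefSeq transcript, its log2 fold change, its p-value and its FDR. The authors marked 1 transcript per symbol as representative. The FDR was checked to be adjusted over all 32321 transcripts. The fold was checked to be drug over DMSO: the DMSO level implied by the 3 Huh7 tables then differed between tables by an SD of 0.00917 to 0.0151 (log2), against 0.339 to 0.582 with the reverse reading. The implied CPM of a group treats the mean level as the mean over libraries.

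No count test was run. Members and lists were chosen with earlier results of these data known. Named genes are the 15 highest and 15 lowest calls among expressed genes, the label check genes, called members of lists and up to 5 members without a call at the highest levels; other members without a call, such as DDIT3, DGAT1, SQLE and F2, were named for their role after their values were seen. For differences between tables, the standard error was the fold change over the normal score of its p-value, replaced, where p exceeded 0.5 or the error was smaller, by the median among genes of like level (20 bins); 2-sided normal p-values were adjusted by Benjamini-Hochberg and called under 0.05. The procedure was tested on simulated data. GC content came from GENCODE transcripts matched by RefSeq name and promoters from RefSeq (GRCh38.p14), with no coordinates of the files' builds. Values of some called list members are not reported here. Other thresholds, filters and centrings were tried as alternatives. Python 3.11.15, pandas 2.3.3 and scipy 1.17.1 were used.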

Additional observations from a re-analysis of the deposited data

Results flagged for a closer look

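The fold changes under the sorafenib label differed between the lines by the approximate normal test (log2, Huh7 minus Hep3B, adjusted over all genes tested) for 4141 genes. Each of the 12 label check genes was among them. Of the LXR-responsive genes, ABCG1 differed by 3.23, FASN by 2.62, SREBF1 by 2.50, SCD by 1.96, ABCA1 by 1.58 and MYLIP by 1.57. Of the ERK-responsive genes, EGR1 differed by 2.45, DUSP6 by 2.38, ETV4 by 2.21, SPRY4 by 2.10, ETV5 by 1.37 and SPRY2 by 0.75. Whether an exchange of the 2 single-drug labels of Huh7 accounts for these differences was not tested.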

How the results depend on the processing

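No call could change direction under the alternatives. The thresholds and filters leave each fold change as it is. Centring on the expressed-gene median, -0.03, or on the GC bins, -0.12 to 0.06, shifts it by less than the smallest called size, 0.18. At an FDR under 0.01 the authors' deposited table held 271 called genes, of which 96 were lower, and with a fold of at least 1.5 it held 146, of which 102 were higher and 44 lower. Of the 411 called genes, 140 lost their call at an FDR under 0.01 and 9 after adjustment over representative transcripts alone, which gave 402 calls. An FDR under 0.10 gave 533 calls in the authors' deposited table, at least 2 CPM 378 and a nonzero count in every library 365. The contrast with Hep3B given GW3965 called 151 genes with no minimum CPM, 154 after centring and 245 with each standard error as its own p-value gives it, against 207 as reported. No paired analysis was possible because the comparison tables used here hold no single libraries, and for the same reason no replicate was left out; a table of FPKM that the labels name was not used here. Depth per library is unknown, so what it limits cannot be stated.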

Other observations

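Outside the lists, FABP1, the fatty acid carrier of liver cells, rose by 1.09 at an implied 221 CPM in labelled sorafenib, against 104 CPM in DMSO, in the authors' deposited table. TDO2, the first enzyme of tryptophan breakdown, stood at -0.93 in the authors' deposited table, and the plasma vitamin D carrier gene GC at -0.37, both with calls. The mean of TDO2 was 1.19 CPM, under the 2 CPM of expressed genes. FUT1, at 1.54, shares its start region with FGF21, at 0.70 without a call, in the authors' deposited table, and both lay under 1 CPM. These genes were chosen after their values were seen.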
